A study of Mus musculus with 8 samples.

Results

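The expression of 5 genes was followed across splenic cells: Il4, Il5, Il13, Il10 and Gata3. They were taken by symbol from the 32285 genes of the count matrices. The libraries came from spleens of 2-month-old mice on a C57BL/6J background, and single cells were counted with a droplet kit that reads the 3′ ends of transcripts and tags each molecule with a unique identifier (UMI). Mutant mice carried Eif3e fl/fl, Cγ1Cre and Rosa26-YFP LSL (cKO), and control mice carried Cγ1Cre and Rosa26-YFP LSL without the floxed Eif3e alleles. All groups therefore shared the Cre and the reporter. The Cre is switched on with transcription of the Ig γ1 constant region in activated B cells, so T cells are not its target. Spleen cells of each genotype were sorted as total live cells or as YFP+ cells, with 2 libraries in each of the 4 groups (control total, cKO total, control YFP+, cKO YFP+). Each library pooled cells of several mice, so the spread between 2 libraries measures batches of pooled mice, not single animals.

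Il4, Il5 and Il13 are the type 2 cytokines, secreted proteins made by CD4 T helper 2 cells, T follicular helper (Tfh) cells, natural killer T (NKT) cells, innate lymphoid cells, basophils and mast cells. IL-4 acts on B cells to promote their activation and class switching to IgG1 and IgE, IL-13 shares a receptor chain with IL-4 and acts mainly on tissues, and IL-5 drives eosinophils and B1 cells. GATA3 is the transcription factor that sets T cell identity and, at high level, the type 2 programme. IL-10 is an inhibitory cytokine, made by regulatory T (Treg) cells, other effector T cells and subsets of B-lineage cells, including B1 and plasma cells.

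The 3 type 2 cytokine genes lie together on chromosome 11 (GRCm38, GENCODE M21). Il4 (ENSMUSG00000000869) spans chr11:53602982-53618669 on the minus strand, Il13 (ENSMUSG00000020383) spans chr11:53631324-53634702 on the minus strand, and Il5 (ENSMUSG00000036117) spans chr11:53720794-53725106 on the plus strand. The gap between Il4 and Il13 is 12.7 kb, and the gap between Il13 and Il5 is 86.1 kb. Il10 (ENSMUSG00000016529) is at chr1:131019845-131024974 on the plus strand and Gata3 (ENSMUSG00000015619) at chr2:9857078-9890034 on the minus strand. The 250 bases before the RefSeq start of each type 2 cytokine gene (GRCm38.p6) are shown because these genes share a locus and had different levels in the same cells. Capitals mark the GATA motif, searched on both strands. It was read as AGATAA where the last base was A, or as AGATAG where it was G, and with T as the first base as TGATAA where the last base was A, or as TGATAG where it was G.
Il4, chr11:53618666-53618915, minus strand: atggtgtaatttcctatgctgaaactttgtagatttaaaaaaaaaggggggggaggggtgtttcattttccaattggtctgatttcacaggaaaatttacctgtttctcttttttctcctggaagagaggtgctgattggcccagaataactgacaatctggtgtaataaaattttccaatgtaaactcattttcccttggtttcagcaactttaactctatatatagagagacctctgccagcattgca
Il13, chr11:53634703-53634952, minus strand: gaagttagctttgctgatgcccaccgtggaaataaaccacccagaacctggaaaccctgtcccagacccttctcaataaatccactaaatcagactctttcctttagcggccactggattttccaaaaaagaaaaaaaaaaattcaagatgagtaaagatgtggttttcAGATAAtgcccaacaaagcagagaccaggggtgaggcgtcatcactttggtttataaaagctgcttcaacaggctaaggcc
Il5, chr11:53720544-53720793, plus strand: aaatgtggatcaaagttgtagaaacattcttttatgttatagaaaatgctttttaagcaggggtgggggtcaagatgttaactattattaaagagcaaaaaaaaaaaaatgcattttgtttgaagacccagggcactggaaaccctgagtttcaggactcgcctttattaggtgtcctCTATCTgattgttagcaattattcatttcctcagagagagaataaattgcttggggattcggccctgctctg
The Il4 window held no such motif, the Il13 window held 1 at 81 bases before the start, and the Il5 window held 1 at 72 bases before the start. A second RefSeq start of Il4 had 1 motif 80 bases before it, and the Gata3 window at chr2:9878601-9878850 had none. Of 32851 promoters of this length, 26.5% held the motif, so these matches are a description of the letters only. The GC content was 37.6% for Il4 and for Il5, 43.2% for Il13 and 70% for Gata3.

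After the filter on cells, the total libraries held 9566 to 11559 cells and 71868375 to 88482479 UMIs, and the YFP+ libraries held 9276 to 11652 cells and 87919035 to 105099466 UMIs. Any pair of libraries shared 51 to 102 cell barcodes, or 0.548% to 0.971% of the smaller library. Levels are given in CPM, the UMIs of a gene over all UMIs of the library or class, on the usual CPM scale. Eif3e itself was at 240 to 289 CPM in the total libraries and 227 to 280 CPM in the YFP+ libraries, with no gap between genotypes. Whether these 3′ end counts include transcripts of the deleted allele was not tested. The paper reports Eif3e deletion in YFP+ B cells of older cKO mice by immunoblot. Cell classes were rebuilt from marker lists after clustering without the 5 genes, so class borders may differ from those of the study. Class names ending in -like rest on these markers. Among CD4 T cells, Tfh-like cells numbered 39 and 17 in the control libraries and 376 and 663 in the cKO libraries, or 2.91%, 1.32%, 26.5% and 34.4% of CD4 T cells. In 2 further CD4 clusters about 65% of cells held Foxp3, the factor that defines Treg cells. One had Il2ra, Foxp3 and Ctla4 among its 10 leading genes and is called the Treg-like cluster. The other had Il1rl1, Klrg1 and Areg, markers of the list for type 2 innate lymphoid cells, and no Treg marker among its 10 leading genes, although 65.4% of its cells held Foxp3 and 90.2% held Cd3e. It is called the Il1rl1-led cluster. It had 32, 27, 277 and 491 cells in control 1, control 2, cKO 1 and cKO 2, while the Treg-like cluster had 141, 147, 57 and 41. Values given for 4 libraries follow this order. The Tfh-like class was made of 2 clusters, one with Il4 and Pdcd1 among its leading genes and a smaller one of 168 cells with no Tfh marker among them, in which 26.8% of cells held Foxp3.

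Il4, Il13 and Gata3 were higher in both cKO libraries of total splenocytes than in both controls, and Il10 was not. Whole libraries held 138 and 307 Il4 UMIs in controls and 1573 and 6082 in cKO, or 1.92, 4.18, 21.1 and 68.7 CPM. Within each batch the cKO library was the higher. In a sum over cells, more cells of a type and more RNA per cell cannot be told apart, so the class sums and the shares of cells given below are needed beside it. Il13 went from 1 UMI in each control library to 39 and 96, Gata3 from 17.5 and 15.7 CPM to 34.5 and 45.8 CPM, and Il10 lay at 5.89, 6.60, 3.99 and 6.14 CPM with overlapping groups. By edgeR's quasi-likelihood F test with Benjamini-Hochberg adjustment over 17176 genes, 0.0233% of all genes were called at an adjusted p under 0.05 and none of the 4 tested members was. Of these, 3 had an unadjusted p under 0.05, and DESeq2 called 3, where it called 2.72% of all genes. The log2 fold change of cKO over control was 3.92 ± 0.71 (SE, adjusted p 0.134) for Il4, 4.43 ± 0.79 (0.0968) for Il13, 1.31 ± 0.24 (0.134) for Gata3 and -0.26 ± 0.30 (1.00) for Il10. The batch numbers pair the libraries, and with the replicate block the adjusted p was 0.0118 for Il4, 0.0148 for Il13 and 0.0468 for Gata3, where 6.24% of all genes were called.

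By class, Il4 was highest in NKT-like and basophil-like cells of both genotypes, joined in cKO by Tfh-like cells. In controls, NKT-like cells held 169 and 455 CPM and the 15 basophil-like cells 561 and 200 CPM, ranges that overlap. The basophil-like value of control 1 rests on 3 cells, with all 11 UMIs in 1 of them. Tfh-like cells came next at 11.9 and 9.31 CPM, followed by clusters with both T and B cell genes at 9.46 and 3.47 CPM, which overlap with them. Unnamed clusters outside the T cell and B-lineage compartments at 4.99 and 2.00 CPM and Th1-like cells at 2.22 and 3.36 CPM overlapped with each other, and gamma delta T-like cells held 1 UMI in all. In cKO, NKT-like cells held 307 and 1152 CPM and Tfh-like cells 431 and 795 CPM, again overlapping. The 9 basophil-like cells held 183 and 394 CPM. Below them, the mixed T and B gene clusters held 56.0 and 129 CPM, Th1-like cells 28.0 and 134 CPM, the Il1rl1-led cluster 30.7 and 71.1 CPM and unnamed T cell clusters 21 and 78.9 CPM, and these 4 did not differ beyond their spread. The main source of transcripts differed between genotypes. NKT-like cells held 342 of the 445 Il4 UMIs of the control libraries (76.9%), and Tfh-like cells held 5592 of the 7655 of the cKO libraries (73.0%).

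**Figure D1:**
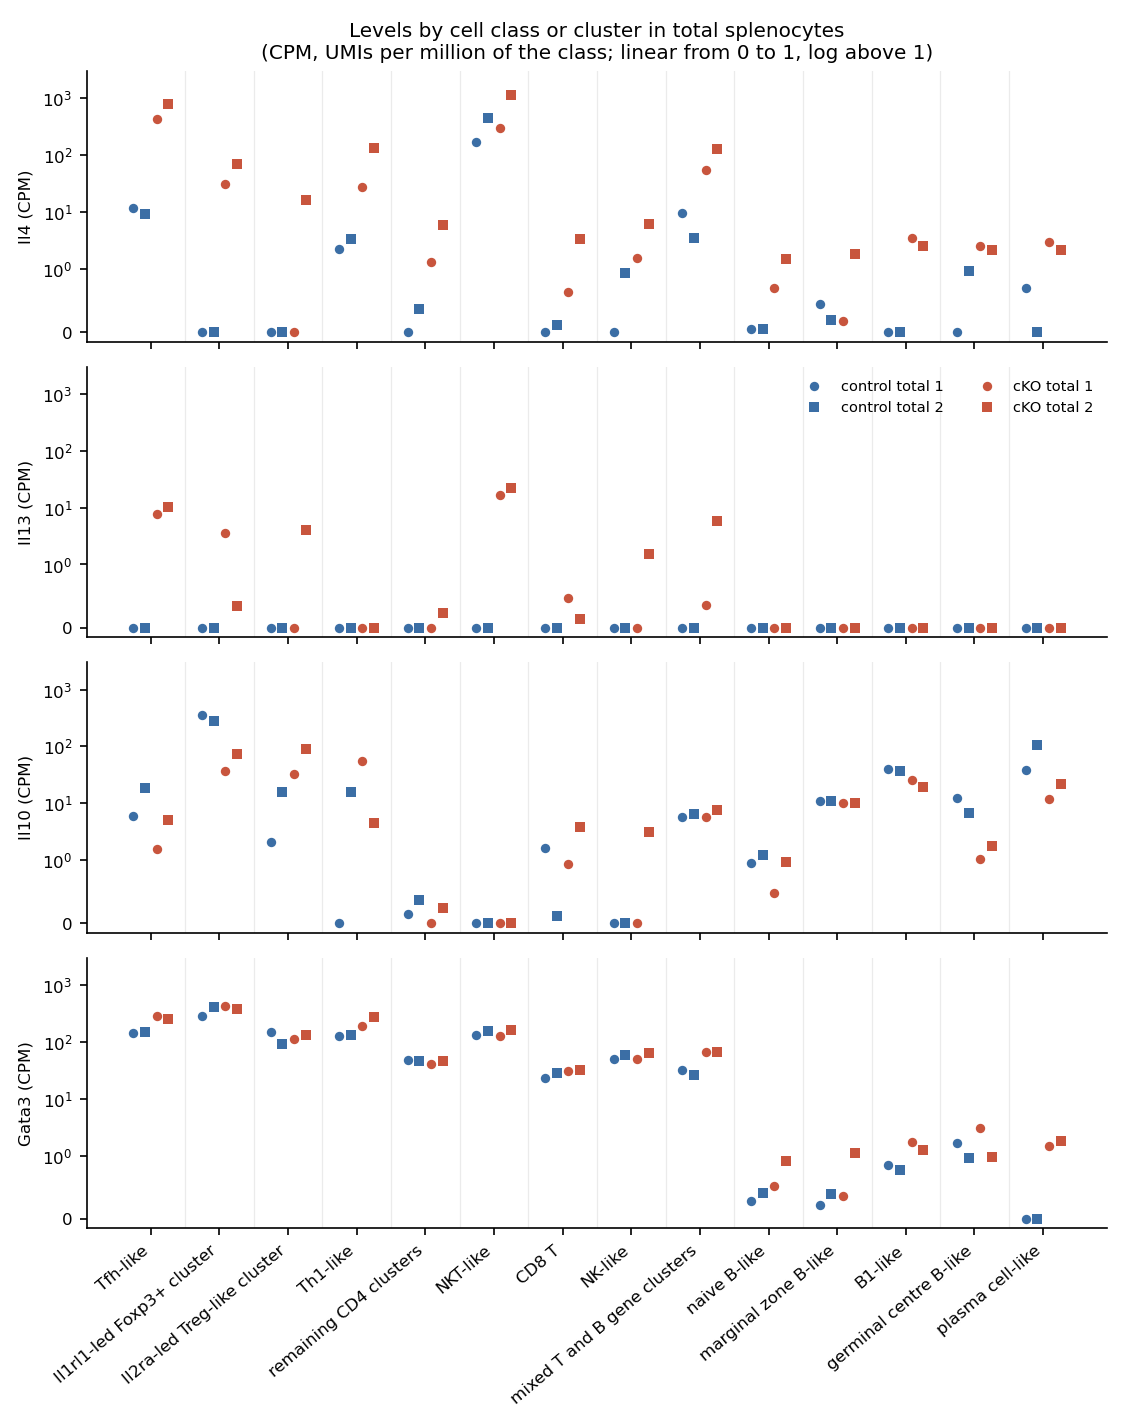
Levels of Il4, Il13, Il10 and Gata3 in total splenocytes, 1 point per library (circles batch 1, squares batch 2; blue control, red cKO), in CPM of the summed class on an axis that is linear up to 1 and logarithmic above. Il4 in Tfh-like cells sits at 9.31 and 11.9 CPM in controls and 431 and 795 CPM in cKO, Gata3 lies above 20 CPM in the T cell and NK classes shown and below 4 CPM in the B-lineage classes, and Il10 is found in both T and B-lineage classes.

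In Tfh-like cells, the CD4 T cells that help germinal centre B cells, the Il4 level per UMI of the class rose in cKO. Control cells held 4 UMIs in 39 cells and 1 UMI in 17 cells, and cKO cells held 1107 in 376 and 4485 in 663. The level was 60.3 times that of controls over the pooled UMIs, and 38.2 times without cKO 2. The fitted log2 fold change was 5.73 ± 0.58 (adjusted p 9.85e-07 by edgeR, range over 12 alternatives 2.8e-37 to 1.59e-05), where 0.514% of 9337 genes were called, 0.203% higher and 0.311% lower in cKO. In cells thinned to 2000 UMIs, the share with an Il4 UMI was 2.56% and 0% in controls (exact 95% binomial intervals 0.0649% to 13.5% and 0% to 19.5%) and 37.2% and 51.6% in cKO (32.3% to 42.3% and 47.7% to 55.5%). The intervals cover counting error only, and the limit used for other counts of 0, 3 counts over the cells, is 17.6% for the 17 cells. The means were 1.28% ± 1.81 and 44.4% ± 10.2 (SD, n = 2), and the exact permutation p of 0.333 is the smallest that 2 against 2 libraries can give. The share in naive B-like cells, which should lack the transcript, was 0%, 0.0243%, 0.197% and 0.388% at the same thinned depth. Their median depth was 4241 to 6130 UMIs against 6087 to 7351 in Tfh-like cells. Without thinning, 10.3% and 5.88% of control and 61.7% and 79.3% of cKO Tfh-like cells held Il4.

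The number of Il4 molecules per Tfh-like cell was spread widely. No control cell held more than 1 UMI. In cKO the median holder had 2 and 4 UMIs, the highest cell had 32 and 94, and 8.51% and 21.1% of cells had 10 or more. The 10% of cells with the most Il4 held 55.2% and 48.2% of the Il4 UMIs, while 144 of 376 and 137 of 663 cells held none. In NKT-like cells the highest cell had 11, 97, 19 and 121 UMIs, and 1.64%, 4.08%, 7.69% and 13.0% had 10 or more, with both cKO libraries above both controls. In these cells, innate-like T cells known to carry ready-made Il4 transcripts, the thinned share with Il4 was 25.4%, 31.3%, 27.7% and 44.4%, with means of 28.3% ± 4.12 and 36.1% ± 11.8 (SD, n = 2; exact permutation p 0.667). The groups overlapped in shares and in CPM, while within each batch the cKO library was the higher in both. The pooled level of cKO was 2.02 times that of controls, but 0.932 times without cKO 2, which had 121 of its 310 UMIs in 1 cell, 3.94 times without control 2 and 3.50 times without cKO 1.

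**Figure D2:**
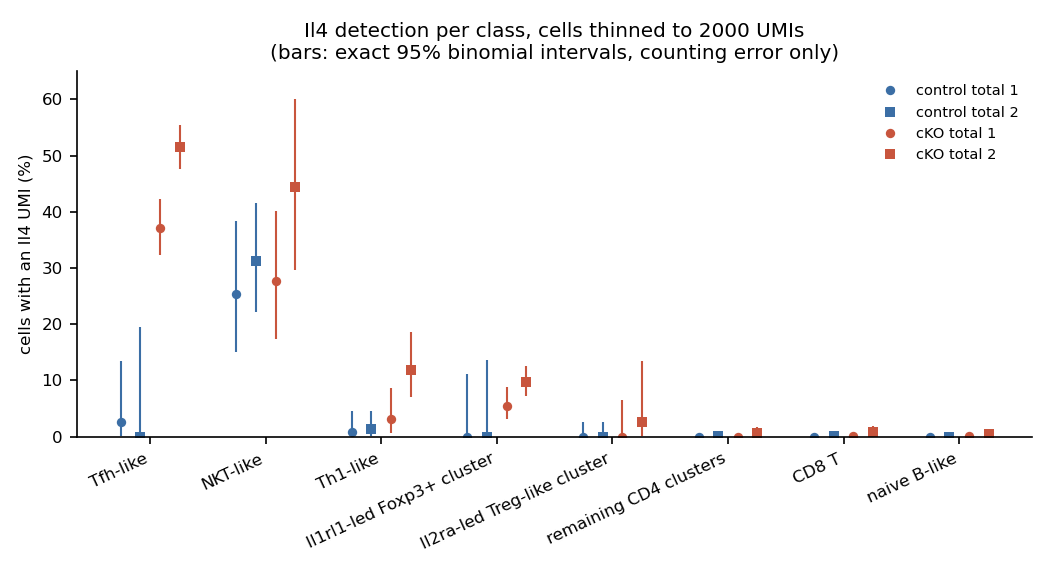
Share of cells with an Il4 UMI per class in total splenocytes, cells thinned to 2000 UMIs, 1 point per library with exact 95% binomial bars (blue control, red cKO). Tfh-like cells are at 2.56% and 0% in controls and 37.2% and 51.6% in cKO, while NKT-like cells overlap between genotypes and naive B-like cells stay below 0.4%.

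**Figure D3:**
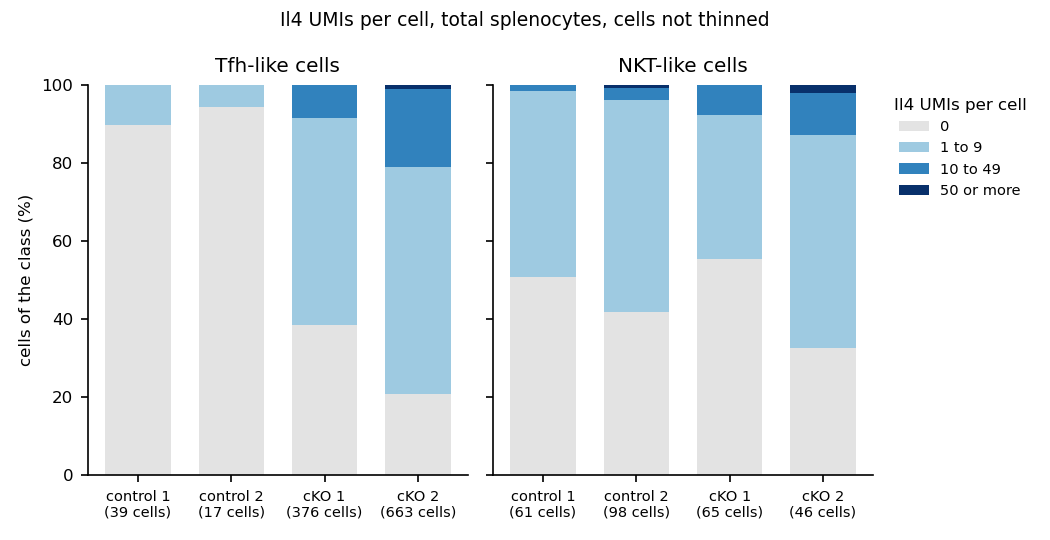
Il4 UMIs per cell in Tfh-like and NKT-like cells of each total library, as stacked shares of cells with 0, 1 to 9, 10 to 49 and 50 or more UMIs, not thinned. Control Tfh-like cells reach 1 UMI at most, and 21.1% of the cKO 2 Tfh-like cells hold 10 or more.

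Over all CD4 T cells, Il4 lay at 0.635 and 0.806 CPM in controls and 130 and 344 CPM in cKO, with a log2 fold change of 7.92 ± 0.66 (adjusted p 0.00481). In this sum of CD4 T cells, edgeR called Il4, Il13 and Gata3, 3 of the 4 tested members, where 3.90% of 12084 genes were called, 3.63% higher and 0.265% lower. Outside the Tfh-like class, CD4 T cells held 2, 5, 74 and 386 Il4 UMIs, or 0.220, 0.681, 11.4 and 45.2 CPM. The rise was 5.37 ± 0.90 (adjusted p 0.0451, range 1.9e-37 to 0.161), where 0.959% of 11580 genes were called. It missed the threshold without control 1 (0.161) and without control 2 (0.0981). The thinned share was 0.0789%, 0.241%, 1.76% and 5.47% (exact permutation p 0.333). Within these cells the Il1rl1-led cluster held 0, 0, 51 and 208 Il4 UMIs, a thinned share of 0%, 0%, 5.45% and 9.65%, where the 0 counts in its few control cells allow up to 9.68% and 12%. The Treg-like cluster held 0, 0, 0 and 4 UMIs. Summed over both Foxp3-rich clusters, the Il4 level in cKO was at least 36.7-fold higher than the floor of 3 counts over the control group (adjusted p 0.0236), where 1.13% of 9260 genes were called. This limit was 18.4-fold without cKO 2, 16.4-fold without control 1 and 20.3-fold without control 2. The classes differ in make-up between genotypes, since the Treg-like cluster held most of these cells in controls and the Il1rl1-led cluster most in cKO. The Il1rl1-led cluster alone gave an adjusted p of 0.116 for Il4. Th1-like cells had a thinned share of 0.847%, 1.28%, 3.06% and 11.9%. The remaining 5 CD4 clusters, of which 3 had no naive T cell marker among their leading genes, were at 0, 0.365, 1.30 and 5.88 CPM. Without both Foxp3-rich clusters, the log2 fold change of Il4 outside the Tfh-like class was 4.59 ± 1.01 (adjusted p 0.210), where 0.0644% of genes were called. No difference of the genotype effect between Tfh-like and other CD4 T cells was found for any of the 4 members tested. The interaction called 0% of 12085 genes, no member had an unadjusted p under 0.05, and the difference for Il4 was 0.74 ± 1.5. DESeq2 was not run on the interaction.

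Low Il4 counts also appeared in naive B-like, CD8 T and NK-like cells of total splenocytes, mostly in cKO. Naive B-like cells of total splenocytes held 0.0557, 0.0510, 0.696 and 1.52 CPM, which was 2.90%, 1.22%, 3.29% and 2.21% of the CPM of their own library, and never more than 1 UMI in a cell. The control values of naive B-like cells rest on 1 UMI each, while their libraries were at 1.92 and 4.18 CPM. In the YFP+ libraries naive B-like cells held 2, 1, 3 and 0 UMIs, at 38.0%, 17.6%, 3.84% and 0% of the library CPM. The control counts and those of the YFP+ libraries are too few to tell whether naive B-like cells follow the library level. CD8 T cells of total splenocytes held 0, 1, 4 and 24 UMIs and NK-like cells 0, 1, 1 and 4. Over all B-lineage cells of total splenocytes, Il4 was at 0.165, 0.133, 0.913 and 1.65 CPM, with a log2 fold change of 2.87 ± 0.53 (adjusted p 0.121), where 0.0136% of 14712 genes were called. None of the 3 tested members was called in this sum, although each had an unadjusted p under 0.05 and DESeq2 called Il4 and Il10, where it called 2.34% of all genes. With the replicate block, Il4 had an adjusted p of 0.0112, where 11.6% of genes were called. Shares at or below those of naive B-like cells are not told apart from theirs, and the source of such counts was not tested. The part of free RNA in the B-lineage counts was not tested. Mixed T and B gene clusters, unnamed because B cell genes led them, held 23, 12, 158 and 482 Il4 UMIs. In cKO, their cells with Il4 held Cd4 more often than the other cells of these clusters (46.2% against 18.6%) and Cd79a about as often (87.2% against 85.6%). Doublets were kept in these counts. With the doublets marked by a caller removed, the adjusted p of Il4 was 0.00534 in all CD4 T cells and 0.0484 outside the Tfh-like class.

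In the YFP+ libraries Il4 was lower in B-lineage cells of cKO, and not over whole libraries. Whole libraries held 50, 74, 157 and 60 Il4 UMIs, or 0.569, 0.704, 1.77 and 0.592 CPM, with overlapping groups. B-lineage cells, which make up most of them, held 41, 73, 13 and 12 Il4 UMIs, or 0.485, 0.7, 0.154 and 0.119 CPM. Il4 fell by 2.01 ± 0.49 on the log2 scale (adjusted p 0.0413), where 7.59% of 16116 genes were called. The call was lost without control 2 (0.0735), without cKO 2 (0.104) and with scaling by total UMIs only (0.0850). The classes of this sum were read one by one, with no test. B1-like cells held 12, 8, 0 and 0 UMIs and marginal zone B-like cells 5, 7, 0 and 0. Germinal centre B-like cells held 5, 26, 1 and 1 UMIs (0.199, 0.564, 0.148 and 0.242 CPM), and overlapped between genotypes. T-bet+ B-like cells held 11, 25, 4 and 0 UMIs (1.26, 2.72, 8.40 and 0 CPM), with all 4 of cKO 1 in 1 cell. Plasma cell-like cells held 3, 3, 1 and 8 UMIs (0.165, 0.148, 0.385 and 3.12 CPM), higher in both cKO libraries, although cKO 1 lay under the floor of 3 counts and 6 of the 8 UMIs of cKO 2 were in 1 cell. Pre-germinal centre B-like cells held 2, 2, 4 and 3 UMIs (0.889, 1.45, 0.184 and 0.109 CPM) and naive B-like cells 2, 1, 3 and 0 (0.216, 0.124, 0.0681 and 0 CPM), lower in both cKO libraries at 4 or fewer UMIs each. Memory B-like cells and the interferon-response cluster held 1 UMI each in all, and transitional B-like cells none. The class sizes differed as well, with 1657 T-bet+ B-like and 5062 germinal centre B-like cells in controls against 57 and 584 in cKO, and the part of this in the fall was not tested. The few CD4 T cells in these libraries (175, 33, 198 and 22 cells) held 0, 0, 106 and 42 Il4 UMIs, at least 46.8-fold higher in cKO over the floor of 3 counts (adjusted p 7.7e-14), where 1.09% of genes were called. This limit was 5.51-fold without control 1, since control 2 had only 33 such cells, and 119-fold without cKO 1. How these T cells came through the sort for YFP was not tested. The difference of the B-lineage effect between the sorts was 4.95 ± 0.72 for Il4 (edgeR, adjusted p 0.0305), where 1.61% of genes were called. It was fitted only without the replicate block.

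Il13, the neighbour of Il4, rose in CD4 T cells of cKO and was found in far fewer cells. CD4 T cells held 0, 0, 26 and 62 Il13 UMIs, and the 0 counts allow up to 0.230% and 0.238% of control cells with a UMI. The level in cKO was at least 21.3-fold higher than the floor of 3 counts over the control group (adjusted p 0.0155, range over 12 alternatives 3.2e-10 to 0.0184), a limit that was 9.40-fold without control 1 and 11.9-fold without control 2. Tfh-like cells held 0, 0, 20 and 59 of these UMIs, 7.80 and 10.5 CPM in cKO, with a thinned share of 1.08% and 2.12% against 0% and 0% (exact permutation p 0.333). With 56 control Tfh-like cells, a share of that size was not detectable in the controls, and the edgeR test within Tfh-like cells gave an adjusted p of 0.533. NKT-like cells held 0, 0, 6 and 6 UMIs, at least 6.55-fold higher over the floor, or 3.68-fold without control 1 and 2.88-fold without control 2. The mixed T and B gene clusters held 0, 0, 1 and 22. Th1-like cells held none in any library. The 2 UMIs of the control libraries were both in basophil-like cells, and no B-lineage cell of the total libraries held any. In cKO, 56 cells held Il13, of which 98.2% were in the T cell and NK compartment. Of the 56 cells, 89.3% held a Cd4 UMI and 35.7% a Cd79a UMI, a B cell transcript, with doublets kept.

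Il5 was at the limit of detection in all groups. A single UMI was found in total splenocytes, in an Il1rl1-led cluster cell of cKO 1, and the YFP+ libraries held 1, 1, 0 and 1. In the CD4 T cells of single libraries, 0 detected cells allow a share of up to 0.158% to 0.238%. Il5 was below the filter on low counts in every comparison. Without that filter edgeR gave it adjusted p-values of 0.861 to 0.969 in the 5 sums that held a UMI. Cells with abundant Il4 were thus not seen to hold Il5 at this depth, with no cell holding both.

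Gata3 was a T cell gene in all libraries, with 97.0% of its UMIs in the T cell and NK compartment in controls and 97.7% in cKO. In controls the Il1rl1-led cluster was highest at 286 and 412 CPM, and the Tfh-like (143 and 149 CPM), NKT-like (134 and 156 CPM), Th1-like (128 and 131 CPM) and Treg-like (147 and 91.8 CPM) groups overlapped or lay close to each other. NK-like cells were at 49.2 and 60.0 CPM, the remaining CD4 clusters at 47.8 and 46.9 CPM and CD8 T cells at 22.8 and 28.1 CPM. Naive B-like cells were below 1 CPM in every total library. In cKO, Gata3 rose over all CD4 T cells from 74.8 and 70.2 CPM to 196 and 216 CPM (log2 fold change 1.39 ± 0.25, adjusted p 0.0263), and missed the threshold without cKO 2 (0.0676). Tfh-like cells reached 291 and 249 CPM, with thinned shares of 22.0% ± 2.13 in controls and 39.7% ± 2.12 in cKO (SD, n = 2; exact permutation p 0.333). The groups did not overlap, but the class was not called (0.97 ± 0.36, adjusted p 0.448). With the replicate block its adjusted p was 0.0148, where 1.96% of genes were called. Outside the Tfh-like class Gata3 went from 72.3 and 69.1 CPM to 159 and 194 CPM, 1.28 ± 0.25, with an adjusted p of 0.0782, and of 2.1e-05 with the replicate block, where 13.4% of genes were called. Summed over both Foxp3-rich clusters the difference was 1.19 ± 0.28 (0.0868), and with the replicate block the adjusted p was 6.3e-06, where 13.3% of genes were called.

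Gata3 was also read within the clusters of CD4 T cells outside the Tfh-like class, whose cell numbers differed between genotypes. The part of this make-up in the difference of the sum was not tested. Within the Il1rl1-led cluster Gata3 was at 286, 412, 430 and 383 CPM (0.26 ± 0.32, adjusted p 0.997), and within the Treg-like cluster at 147, 91.8, 112 and 135 CPM (0.07 ± 0.37). The remaining CD4 clusters were at 47.8, 46.9, 40.5 and 47.1 CPM (-0.06 ± 0.24). All 3 overlapped between genotypes. Th1-like cells did not, at 128, 131, 193 and 273 CPM. CD8 T cells (0.32 ± 0.24, where 0.105% of 11424 genes were called) and NK-like cells (0.09 ± 0.36) had no called difference. In NK-like cells 0% of 7924 genes were called by edgeR and 0 by DESeq2, while 85 genes had an unadjusted p under 0.05 by edgeR.

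Il10 UMIs were split differently between B-lineage and T cells in the 2 genotypes of total splenocytes, at like totals. B-lineage cells were 81.0% of 343 cells with Il10 in controls and 51.4% of 284 in cKO. B-lineage cells carried 74.1% of the Il10 UMIs in controls and 37.7% in cKO, and the T cell and NK compartment 23.1% and 59.4%. Over all CD4 T cells Il10 was at 9.00, 9.27, 12.4 and 19.0 CPM (0.66 ± 0.28, adjusted p 0.300). With the replicate block the adjusted p was 0.0183, where 27.0% of genes were called. CD4 T cells outside the Tfh-like class went from 9.11 and 9.13 CPM to 16.6 and 28.1 CPM (1.24 ± 0.30, adjusted p 0.148, and 0.00139 with the replicate block). Their thinned share was 0.394%, 0.803%, 1.18% and 2.57% (exact permutation p 0.333). Tfh-like cells held only 2, 2, 4 and 29 Il10 UMIs, of 335074, 107405, 2565600 and 5638925 UMIs in the class. The class was larger in cKO, so these counts do not show a rise. NKT-like cells held none in any library, which allows a share of 3.13% to 6.67% per library. Th1-like cells were at 19.0 CPM as the mean of the 4 libraries, and the remaining CD4 clusters stayed below 0.4 CPM.

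Within the Foxp3-rich cells, Il10 fell in the Il1rl1-led cluster. In the Treg-like cluster it was higher in both cKO libraries than in both controls, but was not called. The Il1rl1-led cluster had 80, 38, 61 and 212 UMIs, or 352, 275, 36.7 and 72.4 CPM, and its Il10 level fell by 2.46 ± 0.37 on the log2 scale (adjusted p 0.00135), where 0.183% of genes were called. The UMIs came from 7, 4, 14 and 46 cells, and the highest cell of each library held 41, 26, 16 and 37 of them. Without that cell's Il10 UMIs, over the same total, the level was 171, 86.7, 27.1 and 59.8 CPM, with controls still above cKO. The removal was chosen after the values were seen, and no test was made without these cells. Its thinned share was 12.9%, 12%, 2.91% and 5.95%, which in the controls was 4 of 31 and 3 of 25 cells. The Treg-like cluster had 2, 13, 11 and 22 UMIs, or 2.06, 15.7, 32.3 and 89.9 CPM (2.41 ± 0.61, adjusted p 0.192). Only 0.0145% of 6901 genes were called there. The difference between the clusters was -5.00 ± 0.85 (edgeR, adjusted p 0.131), fitted only without the replicate block. In that fit the effects of the clusters were not called as different. The 2 clusters together were at 68.5, 52.8, 36.0 and 73.8 CPM (-0.18 ± 0.35, adjusted p 0.915), with overlapping groups. The cluster holding most Foxp3-rich cells changed between genotypes, so neither value describes the same cells in both.

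Il10 fell in B-lineage cells of the YFP+ libraries of cKO. In the YFP+ libraries they held 1239, 1407, 206 and 163 Il10 UMIs, or 14.6, 13.5, 2.44 and 1.62 CPM. Il10 fell by 2.82 ± 0.26 on the log2 scale (adjusted p 0.00384, range over 12 alternatives 2.1e-19 to 0.0209). In total splenocytes they held 7.04, 8.30, 2.91 and 3.20 CPM, without overlap, a log2 fold change of -1.25 ± 0.23 with an adjusted p of 0.155, and of 0.00745 with the replicate block. The difference between the sorts, fitted only without the replicate block, was 1.58 ± 0.33 (edgeR, adjusted p 0.0651). By class in total splenocytes, plasma cell-like cells were at 39.2, 106, 12 and 21.7 CPM and B1-like cells at 39.9, 36.4, 25.3 and 19.0 CPM. Marginal zone B-like cells lay at 11.1, 10.8, 10.3 and 9.93 CPM (-0.12 ± 0.26) and naive B-like cells at 0.476 to 1.22 CPM. None of these 4 classes was called, where 0.0899%, 0.126%, 0.0355% and 0.0766% of all genes were called, in the order given. In the YFP+ libraries germinal centre B-like cells went from 4.79 and 5.62 CPM to 0.886 and 0.966 CPM and were called (-2.36 ± 0.44, adjusted p 0.0334), where 1.21% of genes were called. Plasma cell-like cells went from 33.8 and 30.3 to 14.2 and 22.6 CPM (-0.75 ± 0.31, adjusted p 0.434). B1-like (-1.26 ± 0.31, adjusted p 0.0961), marginal zone B-like (-0.96 ± 0.37, 1.00) and naive B-like cells (-2.16 ± 0.49, 0.0808) also missed the threshold. In the fits of plasma cell-like cells and of these classes, 0.171% to 1.29% of all genes were called. All 5 of these classes were lower in both cKO YFP+ libraries than in both controls, which did not hold for T-bet+ B-like cells (5.86, 7.63, 21 and 0 CPM, with 41 and 16 cells in cKO). The make-up of the YFP+ libraries also differed, with naive B-like cells numbering 2007 and 2313 in controls and 6880 and 8312 in cKO after thinning.

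**Figure D4:**
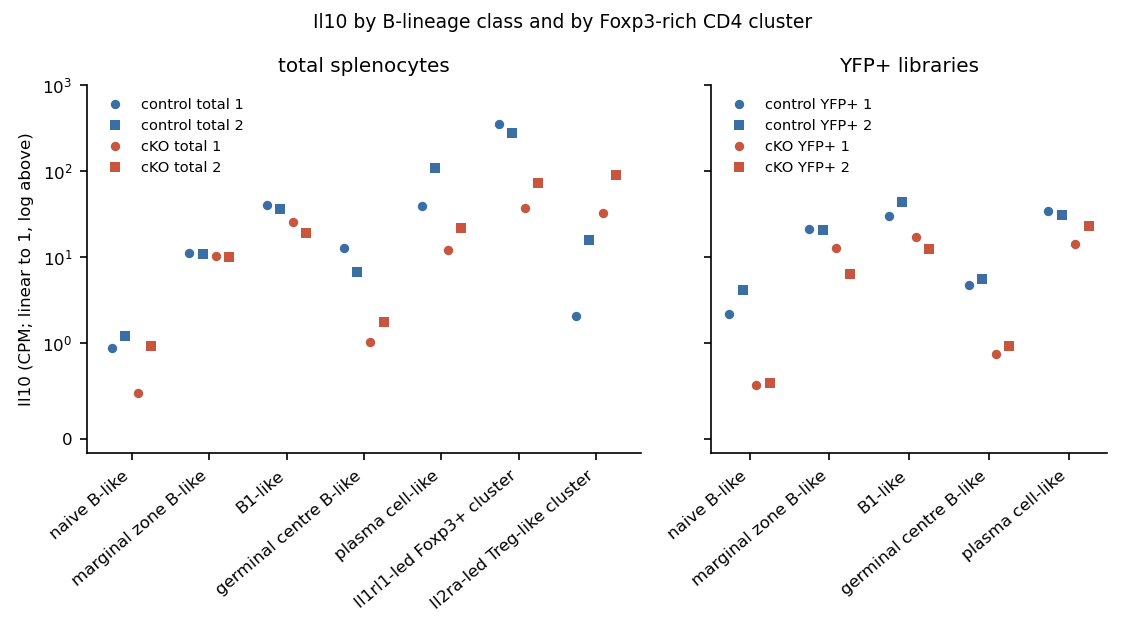
Il10 level by B-lineage class and Foxp3-rich CD4 cluster in total splenocytes (left) and by B-lineage class in YFP+ libraries (right), in CPM on an axis linear to 1 and logarithmic above, 1 point per library (blue control, red cKO). The Il1rl1-led cluster lies at 352 and 275 CPM in controls and 36.7 and 72.4 CPM in cKO, and the 5 B-lineage classes drawn for the YFP+ libraries are lower in cKO.

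Co-detection was read in single cKO CD4 T cells thinned to 2000 UMIs, since controls had only 5 thinned CD4 T cells with Il4, none with Il13 and 17 with Il10 of 2570. The shares are pooled over both cKO libraries with exact 95% binomial intervals, and cells of a library are not replicates, so no test was made. In Tfh-like cells, Gata3 was as frequent with as without Il4, 38.9% (34.5% to 43.4%) of 478 holders against 39.7% (35.6% to 43.9%) of the others. By library this was 42.8% against 40.3% in cKO 1 and 37.4% against 39.2% in cKO 2. Outside Tfh-like cells, 59.3% (48.2% to 69.8%) of 86 Il4 holders held Gata3 against 23.9% (22.1% to 25.7%) of the others, which was 50% against 21.5% in cKO 1 and 61.8% against 26.0% in cKO 2. In the Il1rl1-led cluster alone, where Gata3 is frequent in all cells, the shares were 61.3% (48.1% to 73.4%) of 62 and 49% (45.2% to 52.8%), with overlapping intervals. In NKT-like cells they were 26.7% (14.6% to 41.9%) of 45 and 26.4% in controls and 18.4% (7.74% to 34.3%) of 38 and 19.4% in cKO. Il4 holders thus held Gata3 more often than other cells in the sum of CD4 T cells outside the Tfh-like class. Intervals overlapped within the Il1rl1-led cluster, within Tfh-like cells and within NKT-like cells.

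Il13 was found mainly in cells that also held Il4. Of 21 thinned CD4 T cells with Il13, 14 held Il4 (66.7%), and 2.48% (1.36% to 4.13%) of 564 Il4 holders held Il13 against 0.257% of the others. All 14 were Tfh-like, where 14 of 18 Il13 cells held Il4 (77.8%) in a class in which 478 of 1030 cells did. By library, 4 of 4 Il13 cells of cKO 1 and 10 of 14 of cKO 2 held Il4. Outside the Tfh-like class none of 86 Il4 holders held Il13. Only 3 of 2263 cells held Il13 there, too few to tell whether joint detection is particular to Tfh-like cells. Il10 was in only 49 of 3293 thinned CD4 T cells, so joint counts with it are small and cannot show avoidance. Of the 564 Il4 holders, 478 were Tfh-like, a class with few Il10 UMIs. Of 564 CD4 T cells with Il4, 0.887% held Il10 against 1.61% of the others, and 4 of these 5 cells were in the Foxp3-rich clusters of cKO 2. No CD4 T cell held Il13 and Il10, but 21 and 49 holders are too few for a joint cell to be likely under independent detection. Gata3 was held by 51.0% (36.3% to 65.6%) of 49 CD4 T cells with Il10 against 29.3% of the others, and within the Foxp3-rich clusters by 50% of 42 against 46.1%.

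**Figure D5:**
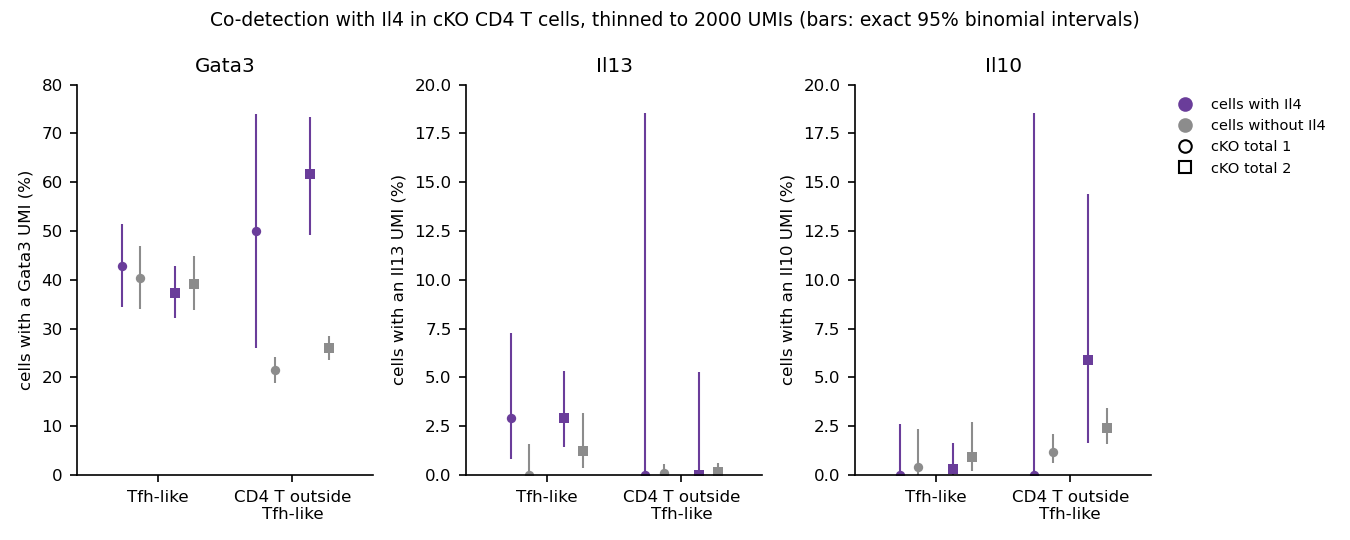
Share of cells with Gata3, Il13 or Il10 among CD4 T cells with Il4 (purple) and without Il4 (grey), in Tfh-like cells and in CD4 T cells outside that class, thinned to 2000 UMIs, per cKO library with exact 95% binomial bars. Gata3 is at like shares in Tfh-like cells, and at 50% and 61.8% against 21.5% and 26.0% outside.

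Other transcripts of the same thinned cells were read from a fixed panel. The shares are pooled over the libraries of a genotype and are a description, with no test. The Tfh-like class includes the smaller cluster with no leading Tfh marker. Among cKO Tfh-like cells, those with Il4 held Pdcd1, the gene of the PD-1 receptor, in 64.6% against 52.4%, Cd40lg, the ligand that signals to B cells, in 47.3% against 32.2%. Both shares were higher in the holders of each cKO library. Il21, the other main Tfh cytokine, was in 5.80% against 6.01% in cKO 1 and in 9.41% against 2.82% in cKO 2. Maf was close (73.6% against 67.4%), as was Bcl6, the Tfh master regulator (36.6% against 31.3%). Foxp3 was in 0.725% against 4.72% in cKO 1 (exact 95% binomial intervals 0.0183% to 3.97% and 2.38% to 8.29%) and in 1.47% against 5.33% in cKO 2 (0.479% to 3.40% and 3.13% to 8.40%). Outside Tfh-like cells, Il4 holders held Maf in 67.4% against 26.4%, Icos in 69.8% against 49.2%, Pdcd1 in 16.3% against 5.93%, Foxp3 in 26.7% against 14.5% and Il1rl1 in 17.4% against 8.96%. The 21 Il13 holders held Pdcd1 in 66.7% against 22.2% and Cd40lg in 52.4% against 26.5%. No CD4 T cell with a type 2 cytokine held Mcpt8, which marks basophils. Outside Tfh-like cells, Gata3 holders of cKO had Foxp3 in 27.0% against 10.9%, Maf in 54.1% against 19.1% and Il1rl1 in 20.8% against 5.38%, and those of controls had Foxp3 in 9.32% against 5.08% and Maf in 16.7% against 8.35%. The 11 Il10 holders among Foxp3-rich cells of controls held Icos in 90.9% against 44.3% and Il2ra in 18.2% against 43.7%, while the 42 of cKO held them in 83.3% against 73.6% and 21.4% against 15.7%.

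Genes around the members were read from 3 lists. Of 34 genes of the type 2 programme, 28 were tested in CD4 T cells, and 9 rose and 1 fell in cKO, with a median log2 fold change of 0.29 against -0.02 for all genes, of which 3.63% were called higher and 0.265% lower. The make-up of CD4 T cells moved with this sum. The Il1rl1-led cluster, of which Il1rl1 is a leading gene, was 2.39%, 2.10%, 19.5% and 25.4% of them, and Tfh-like cells were also a larger share in cKO. The part of this make-up in the counts was not tested. The leading genes were Il1rl1 (3.55, adjusted p 0.00441), the gene of the IL-33 receptor, Ccr4 (1.89, 0.00804), a chemokine receptor, and Nfil3 (2.66, 0.00876), a transcription factor. Tbx21, which sets the type 1 programme, fell by 1.65 (0.0495), a call that was lost without control 1 (edgeR adjusted p 0.208), with the stricter cell filter (0.0573) and with scaling by total UMIs only (0.0655). Of 13 regulators of Il10 and receptor chains, 6 rose and none fell, with a median of 1.26, led by Nfil3, Bhlhe40 (2.42, 0.0124) and Maf (1.91, 0.0135), transcription factors known to act on Il10. Of 8 neighbours of the type 2 cytokine locus, 6 were tested and Sept8 rose (1.77, 0.0331). In Tfh-like cells alone, none of 25 tested genes of the type 2 programme rose, and Tbx21 fell by 4.53 (adjusted p 0.000321, but 0.871 without control 1, where the fitted change was -1.75), with a median of 0.16 against 0.03 for all genes, of which 0.203% were called higher and 0.311% lower. There, none of 12 Il10 regulators (median 0.12) and none of 6 locus neighbours was called. With the replicate block, which called 27.0% of all genes in CD4 T cells, 13 genes of the type 2 programme were higher and 5 lower, 7 of the Il10 list higher and 1 lower, and 3 locus neighbours higher. With it, 1 type 2 gene and 1 locus neighbour were higher, 1 type 2 gene was lower and none of the Il10 list was called in Tfh-like cells, where 1.96% of all genes were called.

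Genes with the pattern most like that of each member were found, as a description, over 17 cell classes of total splenocytes. Pearson's r of log2(CPM + 1) was used. Small classes, among them the Tfh-like and basophil-like cells, could not be included. The points share libraries and depth, so no p is given. Il4 was nearest to Trpm6 (0.967), Krt83 (0.959), Adam12 (0.956), Npas2 (0.944) and Podnl1 (0.931). All of these were highest in NKT-like cells. Il4 was at 521 CPM there against 41.8 CPM in the next class (means of 4 libraries), so these values rest mainly on 1 class. Gata3 was nearest to Gm13256 (0.987), Zap70 (0.967), Sh2d1a (0.966), Axin2 (0.965) and Cd96 (0.965). Il10, which spans T and B-lineage classes, had less close neighbours, led by Dusp14 (0.841), Ryk (0.818) and Slc41a1 (0.813). No neighbours are given for Il13, since its pattern over these classes rests mainly on the 12 UMIs of NKT-like cells, which lay in 1 cell of cKO 1 and 2 cells of cKO 2.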

How the data were processed

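Single-cell RNA-seq of spleen (8 libraries) was analysed from UMI counts per gene and cell barcode, deposited by the authors as raw matrices without normalization. The submitters' processing notes name GRCm 38 and mm 10, and no source used here names the aligner or counter. Following the study's stated filter, barcodes with over 200 UMIs, over 100 genes and at most 10% mitochondrial UMIs were kept. Depth is given in the report, and intervals (Clopper-Pearson, 95%) and limits for a count of 0 (3 counts) cover counting error only.

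Cells were clustered by the Leiden method of igraph 0.11.9, with neighbours from scikit-learn 1.9.0 (2000 variable genes, 30 components, 20 neighbours, resolution 1). The 5 genes, the listed genes and immunoglobulin, T cell receptor, ribosomal protein and mitochondrial genes were left out of the variable genes. Values were scaled within each batch. B-lineage cells, T and NK cells and the remaining cells were each clustered again, as were CD4 T cells of total libraries. Clusters were named from marker lists, with at least 3 markers detected in 10% of cells. Further limits were set after the clusters were seen and before genotypes were tested. Cd3e had to be in at least 50% of cells of a T cell class, the Cd4 share over 3 times the Cd8a share for CD4 T cells, Foxp3 in at least 50% for Foxp3-rich clusters, and T cell clusters with 2 or more B-lineage markers among their 10 leading genes stayed unnamed. A doublet caller marked 0.869% to 2.03% of cells in total libraries. It did not work in YFP+ libraries (its own threshold marked at most 0.0296%), where a threshold from the others was used.

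UMIs were summed per library and class and tested with edgeR 4.0.16 (quasi-likelihood F test, R 4.3.3, prior count 2 for fold changes, Benjamini-Hochberg over all genes tested, threshold 0.05), with DESeq2 1.42.0 as an alternative. Shares were compared after thinning cells to 2000 UMIs, by two-sided exact permutation over libraries. The labels give each batch a number shared by the genotypes, so the numbers pair the libraries. Deviations from the group mean correlated between same-numbered libraries (r of 0.505 over all cells, 0.508 in CD4 T cells, 0.509 in B-lineage cells and 0.431 in B-lineage cells of YFP+ libraries). On simulated counts for CD4 T cells (11793 genes), 28% of 100 changes of 1 and 90.9% of 99 changes of 2 on the log2 scale were recovered. For Tfh-like cells (9019 genes) the shares were 0% and 61.3%, and for B-lineage cells (14409 genes) 27.1% and 89.9%. Among unchanged genes, 17 were falsely called for CD4 T cells, 0 for Tfh-like cells and 7 for B-lineage cells.

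The members and gene lists were chosen with earlier results of these data known. The 5 genes were named in each comparison, and up to 3 genes per list and direction by smallest adjusted p. Nfil3, Maf, Batf and Irf4 are in 2 lists. Splits of the Foxp3-rich cells, of B-lineage classes and by sort, and the tests between them, were chosen after seeing the data.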

Additional observations from a re-analysis of the deposited data

Results flagged for a closer look

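The genotype effect on Il4 in B-lineage cells differed between total and YFP+ libraries by 4.95 ± 0.72 on the log2 scale (edgeR, adjusted p 0.0305), with Il4 at 0.165, 0.133, 0.913 and 1.65 CPM in total and 0.485, 0.7, 0.154 and 0.119 CPM in YFP+ libraries. In total libraries the Il4 of naive B-like cells was also higher in both cKO libraries than in both controls. Its part in the difference was not tested. The difference between the sorts was fitted only without the replicate block.

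The effects on Il10 in CD4 T cells outside the Tfh-like class and in B-lineage cells of total splenocytes lay in opposite directions in all libraries, a difference of 2.52 ± 0.39 that was not called over all genes (edgeR, adjusted p 0.127). In the Il1rl1-led and the Treg-like cluster the effects on Il10 were likewise opposite in all libraries, a difference of -5.00 ± 0.85 (edgeR, adjusted p 0.131). Neither difference was fitted with the replicate block.

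CD4 T cells of the cKO YFP+ libraries, outside the planned comparisons, held 148 Il4 UMIs in 220 cells, against 0 UMIs in the 208 cells of the control YFP+ libraries.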

How the results depend on the processing

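Of 315 fold changes of single members under the alternative settings, 257 kept direction and side of the threshold, 6 lost the call, 44 gained it and 8 changed sign. Of 182 differences in shares, 134 moved by less than 1 SD. In all total splenocytes, members called went from 0 (0.0233% of all genes called) to 3 with DESeq2 (2.72%), 1 without the filter (0.283%), 3 with the replicate block (6.24%) and 2 to 3 with 1 library left out (1.31% to 5.84%). In CD4 T cells 3 were called (3.90%), against 4 with the replicate block (27.0%), 2 to 3 with 1 library left out (3.74% to 9.33%) and 1 in those of the YFP+ libraries (1.09%). In Tfh-like cells the replicate block called 2 (1.96%) in place of 1 (0.514%). Outside the Tfh-like class, 1 member was called (0.959%), against 2 with DESeq2 (2.33%), 3 without the filter (2.85%), 3 with the replicate block (13.4%), 1 to 3 with 1 library left out (1.51% to 4.19%), 0 without the Foxp3-rich clusters (0.0644%) and 0 in the remaining CD4 clusters (0.0862%). In the Foxp3-rich clusters 1 was called (1.13%), against 2 with DESeq2 (1.58%), without the filter (2.74%) and with the replicate block (13.3%), and 0 in the Treg-like cluster alone (0.0145%). In CD8 T cells 0 were called (0.105%), against 1 without the filter (1.43%) and 0 to 1 with 1 library left out (0.432% to 2.17%). In B-lineage cells of total splenocytes 0 were called (0.0136%), against 2 with DESeq2 (2.34%), 1 without the filter (0.497%), 2 with the replicate block (11.6%) and 1 to 2 with 1 library left out (1.11% to 4.6%). In those of YFP+ libraries 2 were called (7.59%), against 1 with total UMIs only (3.03%), 1 to 2 with 1 library left out (5.39% to 15.2%), 1 in germinal centre B-like cells alone (1.21%) and 0 in plasma cell-like, B1-like, marginal zone B-like or naive B-like cells alone (0.171% to 1.29%). The replicate block changed no call of a member in CD8 T cells, NK-like cells or B-lineage cells of YFP+ libraries, or in the difference between Tfh-like and other CD4 T cells.

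Changes of sign were all in values that were not called. Il10 in all cells lay between -0.69 and 0.074 with 1 library left out, and in the Foxp3-rich clusters between -0.77 and 0.23, with 0.04 without control 1 and 2.41 in the Treg-like cluster alone. Gata3 in NK-like cells lay between -0.16 and 0.30 with 1 library left out (-0.08 without control 1), at -0.12 at Leiden resolution 0.5 and -0.27 at 1.5. Gata3 in the remaining CD4 clusters was at -0.058, and its difference between Tfh-like and other CD4 T cells was between -0.45 and 0.039 with 1 library left out. The Il4 share of Tfh-like cells was 43.1 percentage points higher in cKO, against 31.1 at 1000 UMIs, 54.1 at 4000, 62.4 without thinning and 24.9 for 2 or more UMIs. Outside that class it was 3.46 points higher, against 6.39, 8.34 and 1.07 at 4000 UMIs, without thinning and for 2 or more UMIs. The causes were not tested.

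Over all genes, calls higher and lower in cKO rose with the replicate block to 605 and 466 in all cells, 1764 and 1500 in CD4 T cells, 91 and 92 in Tfh-like cells, 917 and 637 outside them, 610 and 619 in Foxp3-rich clusters, 181 and 154 in CD8 T cells, 939 and 774 in B-lineage cells and 1404 and 1841 in those of YFP+ libraries. DESeq2 gave 400 and 67, 582 and 114, 9 and 24, 248 and 22, 76 and 70, 67 and 18, 255 and 89, and 682 and 1097 in the same order. The difference between Tfh-like and other CD4 T cells gave 54 and 130 calls with the replicate block, and without it 0, or 0 to 42 calls in all with 1 library left out, with 42 without cKO 1 and 6 without cKO 2. Tbx21 lost its call without control 1 in CD4 T cells and in Tfh-like cells. With 17 Tfh-like cells in control 2, control shares in this class are coarse.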

Other observations

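T cell clusters left without a name also held Il4. They held 1, 0, 47 and 279 UMIs, or 0.602, 0, 21 and 78.9 CPM. Of 140 cells with Il4 in the control total libraries, 35.7% held a Cd4 UMI, and of 1349 in cKO, 78.5% did. A Cd79a UMI was in 27.9% of these control cells and in 30.7% of these cKO cells. In YFP+ libraries, 96.3% of the 109 control cells with Il4 were B-lineage, and 76.5% of the 68 cKO cells were in the T cell and NK compartment.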
